A study of Mus musculus with 8 samples.

Results

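The genes described are 9 regulators of mRNA decay: the 5 BTG/TOB genes Btg1, Btg2, Btg3, Tob1 and Tob2, the 3 ZFP36 genes Zfp36, Zfp36l1 and Zfp36l2, and Zc3h12a. They were taken by symbol, 9 of 23284 symbols in the files, and all 9 were found. They were chosen with the measured responses of these same libraries to glucose known, that of Btg2 among them, so their differences between treated and PBS libraries are given as a description and support no claim.

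Proteins of the BTG/TOB family bind the CAF1 deadenylases of the CCR4-NOT complex, and TOB proteins also bind the poly(A)-binding protein, which brings the deadenylase to the poly(A) tail. ZFP36 proteins bind AU-rich elements in 3' untranslated regions with a pair of zinc fingers and recruit the same complex. Zc3h12a (Regnase-1) instead is an endonuclease that cuts stem-loops in mRNAs of inflammatory genes. In blood stem and progenitor cells these families are known for restraining proliferation, lineage choice and inflammatory output, and several members are themselves immediate early genes.

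Lineage- Sca-1+ c-Kit+ (LSK) cells, the sorted marrow fraction that contains stem cells and multipotent progenitors, came from C57BL/6 male mice 12 to 13 weeks old. All mice were fasted overnight for over 14 hours and injected intravenously over 7 days, with marrow collected on day 8. There were 2 glucose libraries (2 g/kg), 2 libraries of glucose at that dose with a 20% lipid emulsion (6 mL/kg), and 4 phosphate-buffered saline (PBS) libraries, each from about 10000 sorted cells. PBS replicates 1 and 2 carry the sample letters H and I, as do the glucose with lipid libraries, and were taken as their controls. PBS replicates 3 and 4 (letters J and K) were left as controls of glucose, an assignment inferred from names. The labels call the samples biological replicates without saying whether a library is 1 mouse or a pool, so p-values measure the spread between these libraries.

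Estimated depth was 5840000 to 8490000 fragments per library. LSK markers summed to 1848 to 2325 FPKM (fragments mapped to a gene, divided by its length and by the size of the library) in treated and 1871 to 2025 FPKM in PBS libraries, and all 13 were detected. Glucose with lipid replicate 1 stood apart: its 11 neutrophil markers summed to 65156 FPKM, against 138 to 442 FPKM in the other 7 libraries, with S100a8 alone at 35390 FPKM. Its 9 monocyte and macrophage markers summed to 664 FPKM, against 46.8 to 83.7 FPKM elsewhere. It was also highest for the summed B cell, erythroid, and mast cell and basophil markers, though not for each gene. Other libraries differed too: the 9 erythroid markers summed to 3103 and 2334 FPKM in glucose with lipid replicates 1 and 2, against 1156 to 1703 FPKM elsewhere. The 6 mast cell and basophil markers summed to 279 FPKM in glucose with lipid replicate 1, 174 and 172 FPKM in PBS H/I, 75.9 and 19.6 FPKM in PBS J/K and 26.04 to 29.9 FPKM in the other 3 treated libraries. No marker of any list was at 0 in all 8 libraries. The part of these other cells in the levels described was not tested. Differences without glucose with lipid replicate 1 are given for Btg2, Btg1 and Zfp36. Those of the other genes named are given with that library and may move without it. In bulk samples fewer cells of a type and less RNA per cell cannot be told apart.

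The regulatory sequences of the members with the largest differences are shown first, since members of both families are known to be switched on as immediate early genes. RefSeq promoter windows on GRCm38.p6, taken as the 250 bases before the annotated start, matched 8 of the 9 genes (Btg3 with 2 starts). Each is printed 5′ to 3′ in the direction of the gene. Capitals mark the full cAMP response element TGACGTCA in Btg2, and in Btg1 the reverse complement of its half-site TGACGT and a TATA box (TATAAA).
Btg2, chr1:134079156-134079405, minus strand: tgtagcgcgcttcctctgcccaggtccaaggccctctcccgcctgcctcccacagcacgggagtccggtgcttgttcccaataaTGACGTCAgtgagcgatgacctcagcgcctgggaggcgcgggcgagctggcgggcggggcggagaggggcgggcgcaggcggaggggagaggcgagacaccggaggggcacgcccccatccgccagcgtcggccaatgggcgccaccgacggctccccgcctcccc
Btg1, chr10:96616751-96617000, plus strand: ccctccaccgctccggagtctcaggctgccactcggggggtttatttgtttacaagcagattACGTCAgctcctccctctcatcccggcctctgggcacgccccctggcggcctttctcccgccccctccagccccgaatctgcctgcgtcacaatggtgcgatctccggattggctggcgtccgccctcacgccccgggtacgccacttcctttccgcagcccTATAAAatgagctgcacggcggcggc

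Counting the base before the start as -1, the full element began at position -166 of Btg2 and was present in 1.55% of all 32851 promoter windows of this length. The half-site, which the full element contains, began at -188 of Btg1 and was present in 6.47% of windows. Motifs were searched on both strands. In Zfp36 an EGR site (GCGGGGGCG, in 2.57% of windows) began at -105 from the RefSeq start, and a serum response element (in 1.47% of windows) began at -58. GENCODE vM21 also draws a Zfp36 transcript whose first exon covers these matches, so only short stretches are printed, with the matches in capitals.
Zfp36 EGR site, chr7:28379316-28379342, minus strand: agctacgccGCGGGGGCGcgtcccgga
Zfp36 serum response element, chr7:28379268-28379295, minus strand: caggccgccCCATAAAAGGagaaagctc

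None of these 3 kinds of match (cAMP response half-site, EGR site, serum response element) was in the windows of Tob1, Tob2, Btg3, Zfp36l1 or Zc3h12a. GC boxes (GGGCGG, in 32.7% of windows) numbered 5 in Zc3h12a, 3 each in Btg2 and Tob1, 2 each in Btg1, Tob2 and 1 window of Btg3, and 1 in Zfp36. A TATA box (in 12.4% of windows) was in Btg1, Tob1 and Zfp36l1. An AP-1 site (TGAGTCA or TGACTCA, in 4.46% of windows) was also searched and was in none of the members' windows. Zfp36l2 was not searched. A match describes the letters of the window and not binding in these cells.

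**Figure D1:**
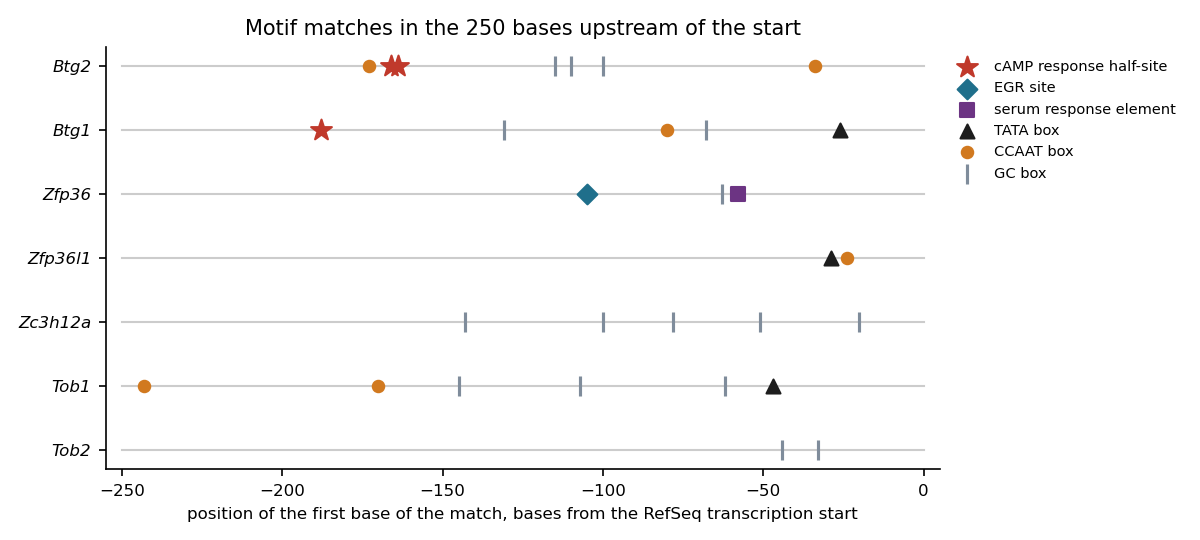
Motif matches in the 250 bases before the RefSeq start of 7 genes, one line per gene, with the first base of each match placed by its distance from the start in bases. The cAMP response matches are in Btg2 and Btg1, and the EGR and serum response matches are in Zfp36; overlapping stars in Btg2 are the strands of 1 element.

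The heptamer TATTTAT, the core that ZFP36 proteins are known to bind, was counted on the sense strand of the 3' untranslated region of 1 GENCODE vM21 transcript per gene. It occurred 3 times in each of Zfp36, Zfp36l1 and Zfp36l2, and each of these genes also held 1 nonamer TTATTTATT. Btg3 held 2 heptamers, Btg2 and Tob2 held 1 each, and Btg1, Tob1 and Zc3h12a held 0, although the untranslated region of Btg1 is 4166 bases long. Of 10322 tested genes with such a region, 3.43% held 3 or more heptamers. The stretches below are 26 bases on GRCm38 with the heptamers in capitals, shown because each ZFP36 transcript carries the kind of element that its own protein family binds.
Zfp36, chr7:28376960-28376985, minus strand: ttTATTTATgacgacttTATTTATtg
Zfp36l1, chr12:80108424-80108449, minus strand: tatcaaaacgTATTTATtgccaaact
Zfp36l2, chr17:84184916-84184941, minus strand: ctatttaactTATTTATtatcttgtg
Btg2, chr1:134077251-134077276, minus strand: aatgaagagcTATTTATacatgtttt

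In PBS libraries the 9 genes spanned from barely detected to among the most abundant transcripts. FPKM is a value per length, so levels of different genes can be set side by side. Zfp36 was highest at 240 ± 39.7 FPKM (SD, n = 4), which placed it 351st of 11931 tested genes, and Zfp36l2 followed at 147 ± 8.75 FPKM. A middle set followed, with Tob2 at 24.95 ± 2.41, Btg2 at 18.9 ± 6.36, Tob1 at 10.1 ± 3.56, Btg1 at 8.37 ± 2.69 and Zfp36l1 at 7.65 ± 1.77 FPKM. Within that set the range of each neighbour in the order overlapped the next over the 4 libraries. Compared within each library, Tob2 was above Btg2, Btg2 above Tob1 and Tob1 above Btg1 in all 4. Btg1 was above Zfp36l1 except in PBS replicate 3, at 5.02 against 5.69 FPKM. Across the set, every PBS library of Tob2 was above those of Tob1, Btg1 and Zfp36l1, and every one of Btg2 was above those of Zfp36l1. Zc3h12a was at 2.19 ± 0.512 FPKM and overlapped none of the others, and Btg3 was at or under 0.365 FPKM.

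In the 4 treated libraries Btg2 stood above Tob2, the reverse of the order of their PBS means. Zfp36 remained first at 489 ± 59.3 FPKM (SD, n = 4), Zfp36l2 followed at 158 ± 18.9 and Btg2 came next at 81.6 ± 15.0 FPKM. Then came Tob2 at 28.1 ± 0.606, Btg1 at 22.0 ± 9.84, Tob1 at 13.5 ± 1.76, Zfp36l1 at 12.6 ± 1.79 and Zc3h12a at 4.399 ± 0.677 FPKM. In the treated libraries Btg2 overlapped neither Zfp36l2 nor Tob2, whereas Tob2, Btg1, Tob1 and Zfp36l1 each overlapped the next.

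**Figure D2:**
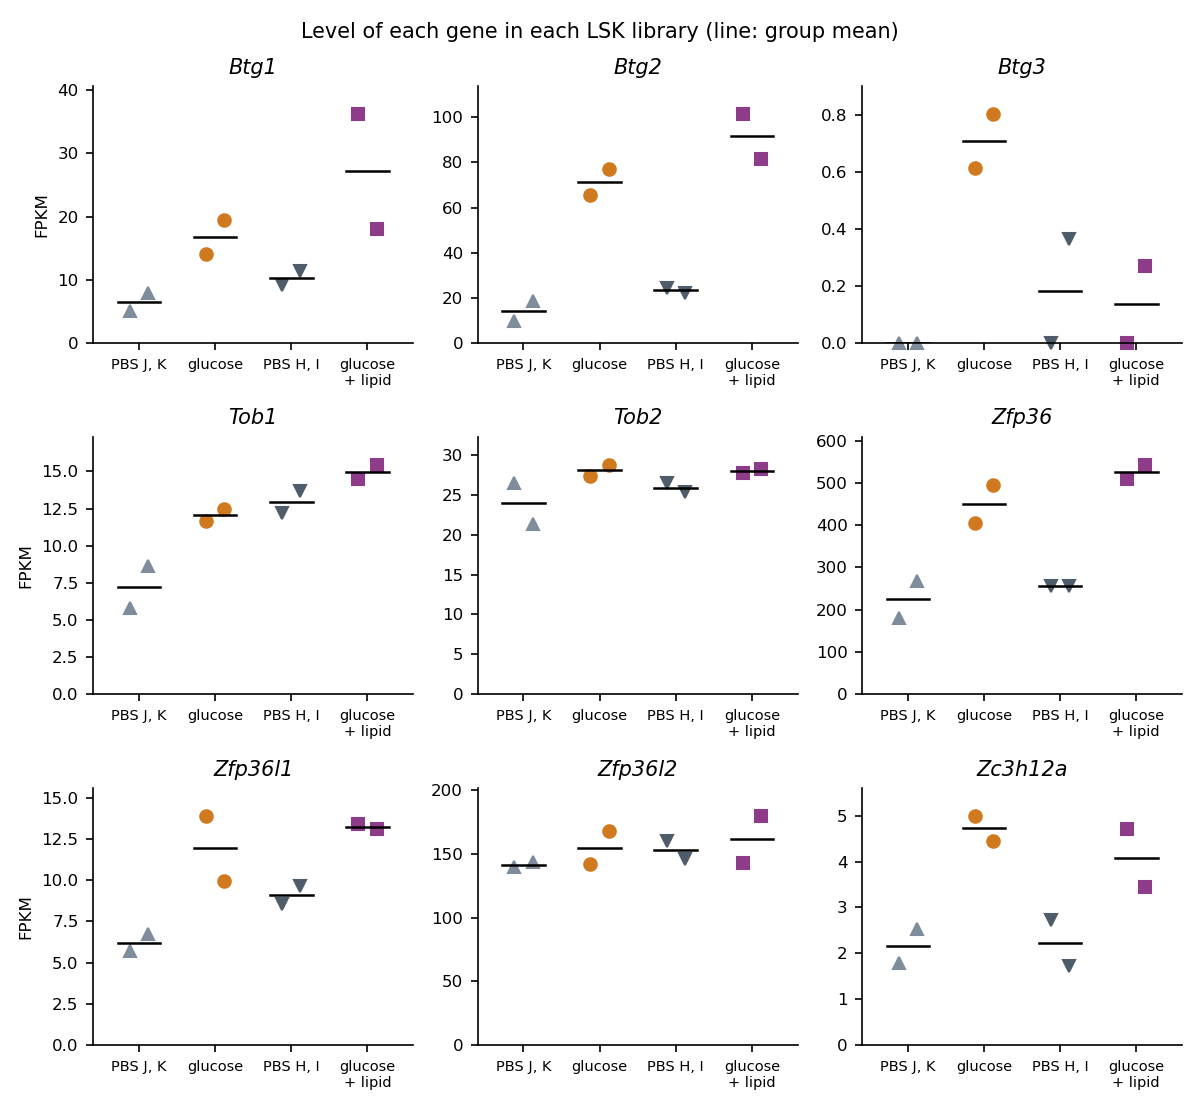
FPKM of the 9 genes in each library, with a linear axis from 0 in each panel, 2 libraries per group and a line at the group mean. All 4 treated libraries of Btg2 (65.8 to 102 FPKM) lie above the 4 PBS libraries (9.95 to 24.3 FPKM), while the groups of Zfp36l2 overlap; Btg3 stays under 1 FPKM.

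Btg2, an antiproliferative p53 target that binds CAF1 deadenylases, showed the largest difference of the 9. It measured 65.8 and 77.2 FPKM in the glucose libraries, 102 and 81.6 FPKM with lipid, 24.3 and 22.4 FPKM in PBS H/I, and 9.95 and 18.8 FPKM in PBS J/K. The lowest treated value was above the highest PBS value, and the treated mean was 4.33 times the PBS mean. On the log2(FPKM + 1) scale used for all fits, the difference was 2.30 ± 0.26 (SE) for glucose against PBS J/K and 1.92 ± 0.26 for glucose with lipid against PBS H/I. Over all treated against all PBS libraries it was 2.11 ± 0.19, and it kept that direction with an estimate of 1.89 to 2.24 under the alternatives tried. Without glucose with lipid replicate 1, the library with high neutrophil markers, it was 2.08, and the difference with lipid was 1.76.

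Btg1, the close relative of Btg2 known from quiescent lymphocytes, had a lower level and a wider spread. Its values were 14.0 and 19.5 FPKM with glucose, 36.3 and 18.0 FPKM with glucose and lipid, 9.15 and 11.5 FPKM in PBS H/I, and 5.02 and 7.84 FPKM in PBS J/K. All 4 treated libraries were above all 4 PBS libraries, but the highest was glucose with lipid replicate 1, which stood apart. The log2 difference was 1.27 ± 0.34 for glucose and 1.24 ± 0.34 for glucose with lipid, and without that library the latter was 0.76. Without it, the difference of all treated from all PBS libraries was 1.06 in place of 1.26 ± 0.23.

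Tob1, a TOB family inhibitor of proliferation, followed the PBS pair as much as the treatment. It measured 11.7 and 12.5 FPKM with glucose and 14.5 and 15.5 FPKM with lipid, against 12.2 and 13.7 FPKM in PBS H/I and 5.80 and 8.62 FPKM in PBS J/K. The glucose libraries were above PBS J/K but below PBS replicate 2. The log2 difference for glucose was 0.69 ± 0.19 against PBS J/K and -0.093 against PBS H/I, so its direction rests on the choice of controls. With lipid it was 0.20 ± 0.19.

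Tob2, the second TOB gene, was nearly level. It measured 27.4 and 28.8 FPKM with glucose, 27.8 and 28.3 FPKM with lipid, 26.5 and 25.4 FPKM in PBS H/I, and 26.5 and 21.4 FPKM in PBS J/K. Treated and PBS libraries did not overlap, and the log2 difference over all libraries was 0.17 ± 0.10. Btg3, another BTG gene, was listed at 0.617 and 0.807 FPKM with glucose, 0.00166 and 0.27 FPKM with lipid, 0 and 0.365 FPKM in PBS H/I, and 0.00166 and 0.00164 FPKM in PBS J/K. These values stand for roughly 0 to 8 fragments per library. Btg3 therefore did not pass the level filter (at least 1 FPKM in at least 2 libraries), and no fold is given.

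Zfp36, which encodes tristetraprolin, was the most abundant member in every library. It measured 405 and 496 FPKM with glucose, 509 and 544 FPKM with lipid, 256 and 257 FPKM in PBS H/I, and 181 and 267 FPKM in PBS J/K. Treated and PBS libraries did not overlap, and the ratio of means was 2.03. The log2 difference was 1.02 ± 0.18 for glucose, 1.03 ± 0.18 for glucose with lipid and 1.03 ± 0.12 over all libraries. Without glucose with lipid replicate 1 the difference with lipid was 1.08 and that over all libraries 1.05. At roughly 3034 to 12887 fragments per library, it was the member with the most fragments behind its values.

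Zfp36l1, a relative known to act in lymphoid precursors, measured 13.9 and 9.95 FPKM with glucose and 13.4 and 13.1 FPKM with lipid. Its PBS values were 8.58 and 9.62 FPKM for H/I and 5.69 and 6.72 FPKM for J/K. The groups did not overlap, but only by the gap between 9.62 and 9.95 FPKM, and the log2 difference over all libraries was 0.66 ± 0.14. Zfp36l2, known to be needed for blood stem cell maintenance, did not separate. It measured 142 and 168 FPKM with glucose, 143 and 180 FPKM with lipid, 160 and 146 FPKM in PBS H/I, and 140 and 143 FPKM in PBS J/K. Over all libraries this was a log2 difference of 0.10 ± 0.10, with a 95% interval of -0.12 to 0.32.

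Zc3h12a was low but separated. It measured 5.002 and 4.45 FPKM with glucose, 4.70 and 3.44 FPKM with lipid, 2.73 and 1.71 FPKM in PBS H/I, and 1.80 and 2.53 FPKM in PBS J/K. Roughly 30 to 103 fragments per library stand behind these values. The ratio of means was 2.01, whereas the log2 difference of 0.76 ± 0.18 over all libraries corresponds to 1.70-fold, because adding 1 FPKM before the logarithm understates the change of low genes.

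In the fits over all 11931 tested genes, few genes passed the adjusted p threshold of 0.05 (limma, Benjamini-Hochberg). For glucose against PBS J/K 0.0922% of genes were called higher and 0.00838% lower, and of the 8 members tested Btg2 was among those called higher (adjusted p = 0.0257) and 0 were called lower. For glucose with lipid against PBS H/I 0.0587% of genes were called higher and 0.0168% lower. Here 0 of the 8 members were called by limma, Btg2 came closest with an adjusted p of 0.0758, and 5 had an unadjusted p under 0.05, as did 11.8% of all tested genes. For all treated against all PBS libraries 0.268% of genes were called higher and 0% lower, and Btg2 (limma adjusted p = 0.00275) and Zfp36 (limma adjusted p = 0.0124) were among those called higher. The haemoglobin gene Hba-a1 was also called higher in that comparison, at 1.57 ± 0.19 (limma adjusted p = 0.0115). Its glucose libraries, at 48.6 and 65.0 FPKM, were nevertheless below PBS H/I at 164 and 134 FPKM. Of the 9 erythroid markers 8 were above 0, with Hbb-b1 at 0.11 ± 0.28, and Hbb-b2 was at -2.40 ± 1.06. The part of erythroid cells in the members' differences was not tested. Nothing is read from the counts of members called, since the members were chosen with these contrasts known. The Btg2 call for glucose was lost when PBS H/I, or all 4 PBS libraries, served as controls (limma adjusted p = 0.206 and 0.131). It was also lost without glucose replicate 1 or 2 (limma adjusted p = 0.19 and 0.251) and without PBS replicate 1 or 2 (0.0673 and 0.066), and Zfp36 passed for glucose without PBS replicate 4 (0.0293). With lipid and without glucose with lipid replicate 2, the Btg2 estimate was 2.08 and the Btg1 estimate 1.73. That fit leaves glucose with lipid replicate 1, with its high neutrophil markers, as the only library of its group. Over all libraries Btg1 passed without replicate 2 (limma adjusted p = 0.0421), a fit that also keeps replicate 1. Btg2 and Zfp36 passed with lipid without PBS replicate 3 or 4. Those libraries enter that comparison only through the shared spread and its degrees of freedom. The Zfp36 call over all libraries was lost without glucose replicate 2, PBS replicate 1 or PBS replicate 2 (limma adjusted p = 0.0728, 0.0696 and 0.0634).

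The groups of 6 of the 8 tested members did not overlap between the 4 treated and 4 PBS libraries with the treated higher, which held for 3.55% of tested genes. These were Btg1, Btg2, Tob2, Zfp36, Zfp36l1 and Zc3h12a. Both glucose libraries were above PBS J/K in 7 members and in 22.3% of genes, and both glucose with lipid libraries were above PBS H/I in 7 members and in 22.2% of genes. The median log2 difference of the 8 members was 0.71 over all libraries, against -0.01 for all tested genes. These shares too describe the choice of members.

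**Figure D3:**
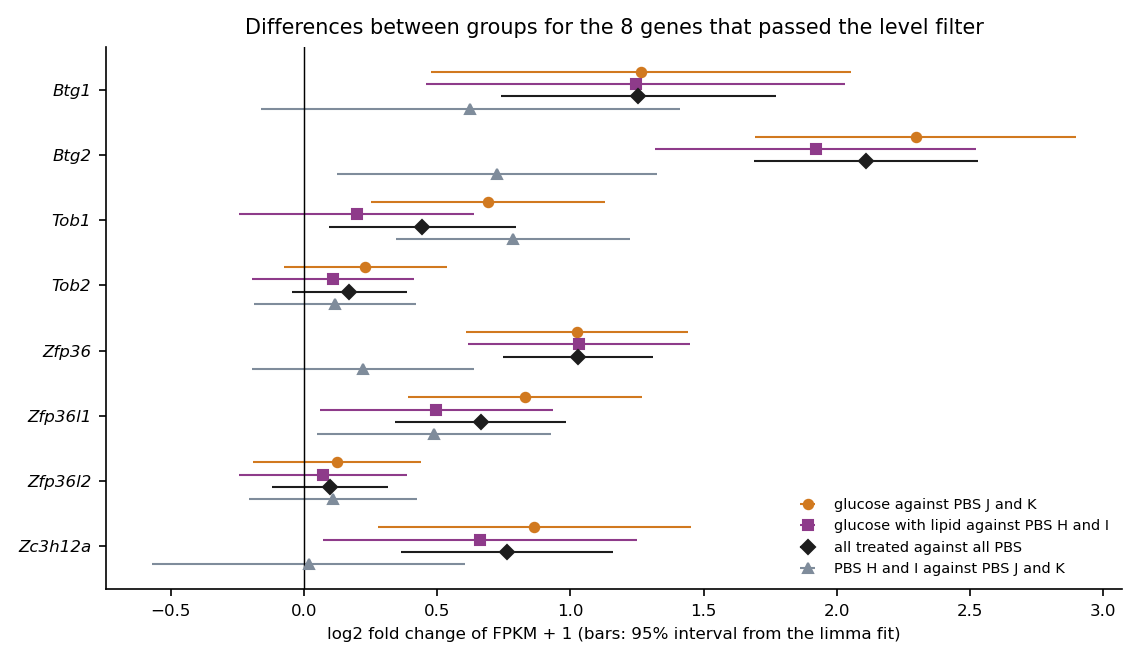
Log2 fold change of FPKM + 1 for the 8 tested genes in 4 comparisons, with 95% intervals from the limma fits. Btg2 lies farthest right in all 3 treated comparisons (1.92 to 2.30), Zfp36l2 and Tob2 lie near 0, and the PBS pairs differ by 0.78 in Tob1.

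Whether the members responded differently in the glucose and the glucose with lipid comparisons was tested by the difference of the effects. Of all genes 0.0168% were called in either direction, and 0 of the 8 members were called by limma, with 0 of them and 12.2% of all tested genes at an unadjusted p under 0.05. For Btg2 the response with lipid was lower by an estimate of -0.38 ± 0.37, with a 95% interval of -1.23 to 0.48. The direction of that estimate rests on the choice of controls, as the PBS pairs differed in Btg2 by 0.72 ± 0.26. With the PBS pairs exchanged, the Btg2 difference was 1.57 for glucose and 2.65 with lipid. For Zfp36 the difference was 0.01 ± 0.25, with an interval of -0.58 to 0.60. These intervals leave room for sizeable differences in both directions, and they do not show that the responses were alike. The largest estimate was that of Tob1, at -0.49 ± 0.27 (interval -1.12 to 0.13).

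The PBS pairs, which no treatment separates, also differed for some members. The limma test of PBS H/I against PBS J/K called 0.0503% of genes in either direction and 0 of the 8 members, with 3 members and 17.2% of all tested genes at an unadjusted p under 0.05. The largest estimate was 0.78 ± 0.19 for Tob1 (limma adjusted p = 0.143). Next were Btg2 at 0.72 ± 0.26 (limma adjusted p = 0.223), Btg1 at 0.63 ± 0.34 and Zfp36l1 at 0.49 ± 0.19. Hba-a1 differed between the same pairs by 2.77 ± 0.26 (limma adjusted p = 0.0173), and the mast cell and basophil markers were also higher in H/I. The part of these cells in the members' values was not tested. Both libraries of PBS H/I were above both of J/K in 5 of 8 members and in 24.4% of genes. PBS replicate 3 was the lowest of the 8 libraries in 6 of the 8 members, namely Btg1, Btg2, Tob1, Zfp36, Zfp36l1 and Zfp36l2, and in 18.2% of genes. Without that library the glucose difference of Btg2 was 1.87 in place of 2.30.

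The makeup of the BTG/TOB family was different in treated and PBS libraries. Btg2 made up 33.7%, 30.5%, 21.0% and 33.2% of the summed FPKM of the 5 genes in PBS replicates 1 to 4. It made up 55.0% and 55.6% with glucose and 56.4% and 56.8% with lipid, a span of under 2 percentage points over 4 treated libraries although their sums ran from 120 to 180 FPKM. Tob2 took the largest share in every PBS library, 34.7% to 56.1%, and 15.4% to 23.0% in treated libraries. The family sum was 47.3 to 73.3 FPKM in PBS libraries.

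The ZFP36 family shifted toward Zfp36 in the same way. Zfp36 made up 55.5% to 64.0% of the summed FPKM of the 3 genes in PBS libraries and 72.2% to 76.5% in treated libraries. Zfp36l2 made up 34.3% to 42.8% and 21.5% to 25.3%, and Zfp36l1 stayed at 1.48% to 2.48% in all 8. The sums were 327 to 425 FPKM in PBS and 561 to 737 FPKM in treated libraries. The shares restate the levels above, from the same values that led to the choice of genes, and carry no test.

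**Figure D4:**
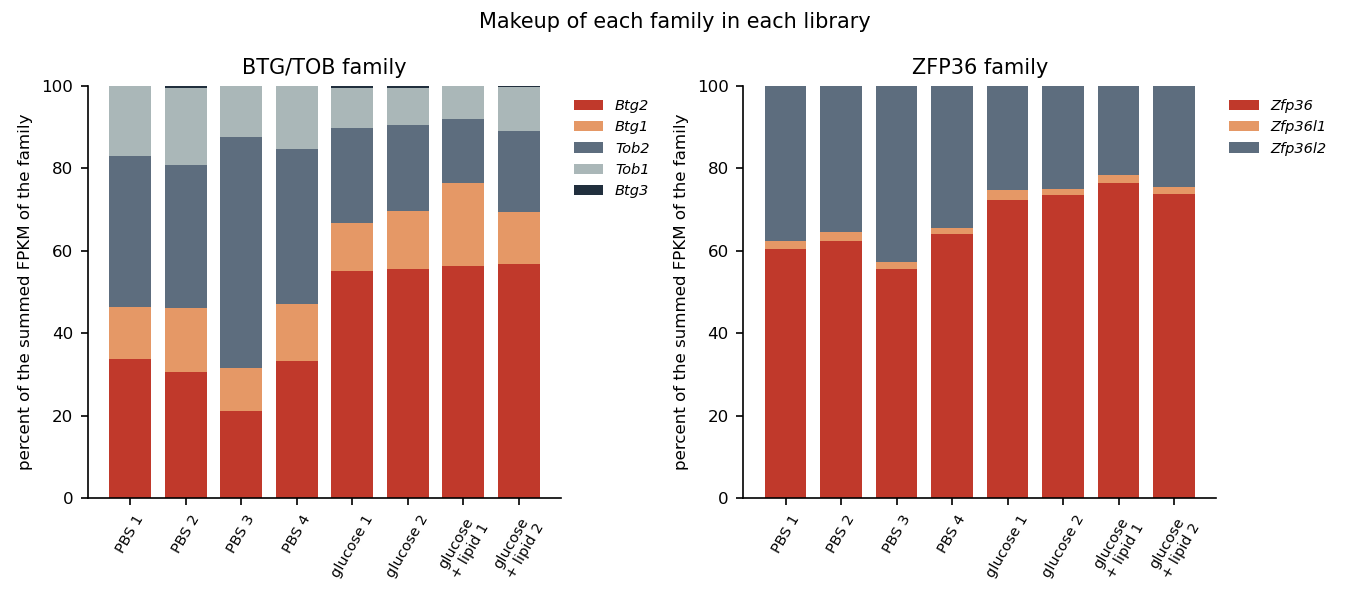
Percent of the summed FPKM of each family taken by each gene in the 8 libraries, stacked to 100. The Btg2 share is 21.0% to 33.7% in PBS and 55.0% to 56.8% in treated libraries, and the Zfp36 share is 55.5% to 64.0% and 72.2% to 76.5%.

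Btg2 and Zfp36 had closely similar patterns over the 8 libraries. Likeness was the Pearson correlation of log2(FPKM + 1) of 2 genes over the 8 libraries, ranked among 10021 genes with a mean of at least 3 FPKM. MicroRNA, snoRNA, predicted and clone-named genes were left out of the naming. Of the rest, the 5 most like Btg2 were Klf6 (r = 0.984), Zfp36 (0.983), Rgs2 (0.976), Cdkn1a (0.972) and Fos (0.970). Those most like Zfp36 were Btg2 (0.983), H2-Q4 (0.971), Dusp1 (0.969), Fbxl12 (0.968) and Hcfc1r1 (0.962). With Btg2, Btg1 correlated at 0.934, Zfp36l1 at 0.908, Zc3h12a at 0.892, Tob1 at 0.781, Tob2 at 0.623 and Zfp36l2 at 0.453. These coefficients rest on 8 libraries that share groups, depth and processing, and serve only to describe likeness.

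The genes of the machinery that these proteins recruit had median differences close to 0 over all libraries. In the comparison of all treated with all PBS libraries limma called 0 of 10 tested CCR4-NOT subunits, with 0 of them and 11.4% of all tested genes at an unadjusted p under 0.05 and a median log2 difference of -0.04. Cnot6l, a catalytic subunit, had the largest estimate at 0.24 ± 0.21, which averages 0.76 ± 0.18 for glucose and -0.27 ± 0.18 with lipid. None of these passed, and the PBS pairs differed in Cnot6l by 0.75 ± 0.18. Its paralog Cnot6 had -0.21 ± 0.10. Limma also called 0 of 6 poly(A)-binding proteins and other deadenylases (median -0.05) and 0 of 10 decapping and 5'-to-3' decay genes (median -0.03), with 0 in either list at an unadjusted p under 0.05. Dcp1b, a decapping cofactor, had the largest value there at 0.34 ± 0.15. A median over all libraries can hide opposite changes with glucose and with lipid. In the difference of effects limma called 0 of the 10 CCR4-NOT subunits. At an unadjusted p under 0.05, 1 was above 0 and 2 were below 0, with 12.2% of all tested genes at that p.

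RNA exosome genes had a median of -0.14, with 13 of 14 below 0. Limma called 0 of them, and 3 of them, all lower, and 11.4% of all tested genes had an unadjusted p under 0.05. The median was -0.28 for glucose against PBS J/K and -0.03 for glucose with lipid against PBS H/I. Between the untreated PBS pairs it was -0.27, with 11 of 14 below 0 and 5 lower at an unadjusted p under 0.05, a larger median than that of treated against PBS libraries. The largest estimates were -0.32 ± 0.11 for Skiv2l2, a helicase cofactor of the nuclear exosome, and -0.27 ± 0.09 for Exosc2. The 15 other RNA-binding regulators of mRNA stability had a median of -0.02 for all treated against all PBS libraries. Limma called 0 of them, and 2 of them and 11.4% of all tested genes had an unadjusted p under 0.05. That median averages opposite shifts, at 0.12 for glucose, with 12 of 15 above 0, and -0.22 with lipid, with 3 of 15 above 0. Between the PBS pairs the median was 0.15. Elavl1, which binds and stabilises AU-rich mRNAs, was at -0.22 ± 0.10 over all libraries.

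Tristetraprolin is known to be held inactive through phosphorylation by the p38-MK2 pathway, whose genes were at a median of 0.06. Of 8 tested, limma called Dusp1, the phosphatase that turns p38 off, which rose by 0.88 ± 0.13 (adjusted p = 0.0323). Of all tested genes 0.268% were called higher. Mapkapk2, the MK2 kinase itself, was at -0.22 ± 0.20. RNA levels say nothing of phosphorylation.

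The known target mRNAs of the ZFP36 proteins that could be tested were not lower as a list. Of 20 listed, 15 passed the level filter, and the statement does not cover the rest. Limma called 2 of the 15 higher, Dusp1 and Fos, and 0 lower, beside 0.268% and 0% of all tested genes. Their median was 0.24. Another 5 were higher and 3 lower at an unadjusted p under 0.05, which 11.4% of all tested genes reached. The 3 lower were Ccnd1 at -0.44 ± 0.18, Bcl2 at -0.34 ± 0.10 and Myc at -0.22 ± 0.07. All 4 treated libraries of Bcl2 were below all 4 PBS libraries. Fos, an AP-1 subunit, rose by 1.38 ± 0.16 (limma adjusted p = 0.0115), from 285 to 492 FPKM in PBS to 923 to 1145 FPKM in treated libraries. The chemokine Cxcl2 had the largest estimate at 2.06 ± 0.41 without passing the test, and its highest value, 18.2 FPKM, was in glucose with lipid replicate 1.

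Among 5 tested targets of Zc3h12a limma called 2 higher, both inhibitor-of-kappa-B proteins, beside 0.268% of all tested genes. Nfkbiz rose by 1.83 ± 0.15, and its treated libraries ran from 34.1 to 43.3 FPKM against 7.24 to 16.2 FPKM in PBS, though the PBS pairs also differed by 0.91 ± 0.14. Nfkbid rose by 1.04 ± 0.11, from 20.6 to 27.4 FPKM in PBS to 44.2 to 49.9 FPKM in treated libraries. Next in size with a mean of at least 3 FPKM was Rel, at 0.36 ± 0.14.

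Other immediate early genes had a median of 0.88, and limma called 9 of 17 higher and 0 lower, beside 0.268% and 0% of all tested genes. This list too was chosen with earlier results of these data known, so nothing is read from its count. Those called were Atf3, Nr4a1, Dusp5, Fosl2, Fos, Klf6, Junb, Dusp1 and Ier2, with log2 differences from 0.80 for Ier2 to 2.93 for Atf3. Dusp1 and Fos stand in more than 1 of these lists, so the lists are not separate results. Btg2 at 2.11 lay between Nr4a1 at 2.80 and Dusp5 at 1.79.

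**Figure D5:**
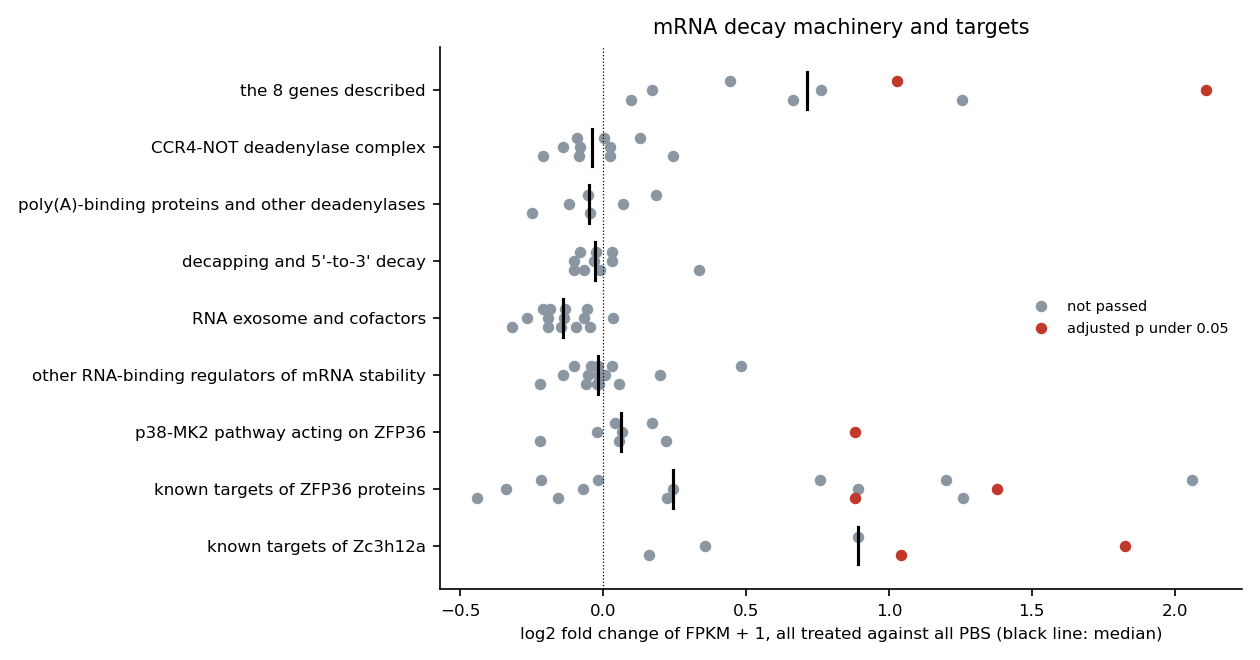
Log2 fold change of FPKM + 1 for all treated against all PBS libraries, one dot per tested gene, with red for an adjusted p under 0.05 and a black line at the median. Dots of the deadenylase, decapping and exosome lists lie between -0.32 and 0.34, while Btg2 lies at 2.11 and Zfp36 at 1.03.

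Genes grouped by TATTTAT heptamers in their 3' untranslated regions had medians near 0. For all treated against all PBS libraries the median was 0.02 for the 354 tested genes with 3 or more, -0.0031 for 2476 genes with 1 or 2, and -0.01 for 7492 genes with none. For glucose the first group had a median of 0.11, but between the untreated PBS pairs it was 0.10, and with lipid it was -0.02. Genes with more heptamers also had longer regions, with medians of 3246, 1875 and 712 bases, and the part of length was not tested.

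The 9 members lie on 9 chromosomes. On GRCm38 in GENCODE vM21, Btg2 spans chromosome 1, 134075170 to 134079120, on the minus strand with 2 exons, and Btg1 spans chromosome 10, 96617006 to 96622809, on the plus strand with 2 exons. Zfp36 spans chromosome 7, 28376784 to 28380253, on the minus strand with 2 exons, and Zc3h12a spans chromosome 4, 125118423 to 125127840, on the minus strand with 6 exons. Noncoding genes on the opposite strand overlap Tob2, Zfp36, Zfp36l1 and Zfp36l2, and Cxadr overlaps Btg3. None of the sources used here says that strand was used in counting, so reads of overlapping genes cannot be told apart. Btg1, Btg2, Tob1 and Zc3h12a had no overlapping gene.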

How the data were processed

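RNA of about 10000 sorted LSK cells per library was amplified with SMART-Seq HT and made into libraries with Nextera XT, per the labels' protocols. TopHat2 2.0.13, Bowtie2 2.2.3, SAMtools 1.0, Cuffnorm 2.2.1 and build mm10 were used, per the submitters' processing notes. The deposited values were FPKM, 1 per gene symbol and library, a unit read from the values and the naming of Cuffnorm. The annotation used is not given in the sources used here. Depth was estimated from the smallest steps between values, and fragments per gene are approximate.

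Genes were kept where 2 or more libraries reached 1 FPKM, which left 11931. Their log2(FPKM + 1) values entered linear models with a mean-variance trend (limma 3.58.1, R 4.3.3). One fit held 4 group means (4 residual and 3.73 prior degrees of freedom). The second fit set the 4 treated against the 4 PBS libraries and had the control set as a block (5 residual and 3.86 prior). Tests were 2-sided, with Benjamini-Hochberg adjustment over all genes tested. The spread was shared over all groups. The glucose and the glucose with lipid comparisons share no library, but the other comparisons reuse theirs.

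All 9 members were named with every value. Genes of the other lists were named if they passed, or if they were among the 3 with the largest difference and a mean of at least 3 FPKM, not all of which are printed. The members and lists were chosen with earlier results of these data known. Alternatives were pseudocounts of 0.1 and 5 FPKM, a filter at 5 FPKM or none, other scalings, other variance models, other control assignments, a replicate block, and leaving out each library. Markers of 7 other cell types were summed. Tables were made in Python 3.11.15 (pandas 2.3.3, numpy 2.4.6) and plots in matplotlib 3.10.9. Promoter windows are from RefSeq, and 3' untranslated regions are from GENCODE vM21.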

Additional observations from a re-analysis of the deposited data

Results flagged for a closer look

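Of the 9 genes, 2 had 1 PBS library farther from the other 3 than Dixon's 95% criterion allows, which chance reaches in about 1 of 20 groups. Zfp36 was lowest in PBS replicate 3 at 181 FPKM, with the other 3 PBS libraries at 256, 257 and 267 FPKM. Btg3 was highest in PBS replicate 2 at 0.365 FPKM, which stands for about 3 fragments, with the other 3 under 0.01 FPKM.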

How the results depend on the processing

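Of 691 alternative values of the members' log2 differences, 644 kept their direction and their side of the threshold, 12 lost a call, 11 gained one and 24 changed sign. The count of members higher with glucose fell from 1 to 0 with no filter on low values, with no mean-variance trend, with crossed controls and with all 4 PBS libraries as controls, and ran from 0 to 2 when single libraries were left out. The count with lipid went from 0 to 1 with a pseudocount of 5 FPKM, with robust variances and with crossed controls, and ran from 0 to 2 over left-out libraries. For all treated libraries it fell from 2 to 1 with no filter and ran from 1 to 3. The Btg2 estimate stayed at 2.30 for glucose without PBS replicate 1 or 2. It stayed at 1.92 with lipid without PBS replicate 3 or 4. Those libraries enter these comparisons only through the shared spread and its degrees of freedom. The causes of the other changes were not tested.

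The sign of Tob1 for glucose changed with crossed controls (-0.093). For the difference of effects, Btg1 became 0.087 with a pseudocount of 5 FPKM and 0.075 with quantile normalisation, and Zfp36 became -0.027 with median of ratios scaling and -0.16 with quantile normalisation. Between the PBS pairs Zc3h12a became -0.10 with quantile normalisation. Leaving out single libraries moved the difference of effects from -0.51 to 0.46 for Btg1, -0.80 to 0.052 for Btg2, -0.27 to 0.027 for Tob2, -0.27 to 0.29 for Zfp36, -0.22 to 0.11 for Zfp36l2 and -0.43 to 0.025 for Zc3h12a. It moved the PBS pair difference from -0.031 to 0.27 for Tob2, -0.057 to 0.50 for Zfp36 and -0.21 to 0.25 for Zc3h12a, and the lipid difference of Zfp36l2 from -0.093 to 0.24.

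Glucose with lipid and PBS H/I share replicate numbers, but the correlation of their deviations was 0.066 over 11931 genes, so the numbers were not taken as pairs. With the replicate block and these 4 libraries, 0 members and 1 gene in all were called higher (limma; Btg2 1.92, adjusted p = 0.134). Without the block, an alternative chosen after seeing the data, 0 members and 3 genes were. Depth limits Btg3 and Zc3h12a most.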
